A study of Mus musculus with 4 samples.

Results

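The DEAD and DEAH box RNA helicase genes were followed through an RNA immunoprecipitation (RIP) of SAFB in mouse hepatocytes. Members were chosen by symbol alone, as every gene named Ddx or Dhx followed by a number and at most 1 letter. This gave 53 of the 52189 gene identifiers in the table, 37 of them Ddx and 16 Dhx. Of these, 48 were tested (32 Ddx and 16 Dhx), because they reached 1 TPM (a length-corrected share of a library, scaled to 1000000) in at least 2 of the 4 libraries.

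The cells were AML12, an immortal hepatocyte line from a mouse that carried a transgene for the growth factor TGF-alpha, kept in 10% serum with an insulin, transferrin and selenium supplement and 0.1 µM dexamethasone. Cells were crosslinked with ultraviolet light, and sonicated nuclear lysate was incubated with either control IgG (2 libraries, IgG RIP) or an antibody to SAFB (2 libraries, SAFB RIP). SAFB is a nuclear scaffold protein that binds RNA and DNA, and the series asked which RNAs associate with it. Nothing in the labels states whether replicates were separate cultures, so p-values measure only the spread between these libraries, which may be technical. The input was not analysed here, so more of an RNA in the lysate and more recovery of it per molecule cannot be told apart, and neither can fewer cells and less RNA per cell.

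DEAD and DEAH box proteins use ATP to open short RNA duplexes or to strip proteins from RNA. They are named for a short stretch of amino acids in their ATP-binding core, Asp-Glu-Ala-Asp in the DEAD box and Asp-Glu-Ala-His in the DEAH box. Members drive the steps of splicing, help to fold ribosomal RNA precursors in the nucleolus, load messenger RNA for export and translation, and sense viral RNA. What was measured here is the recovery of their own messenger RNAs with SAFB, not the helicase proteins.

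The codons of the box are shown for 10 members on which the results below turn, read in frame from GENCODE release M21 coding sequences (build mm10). Each line runs 5′ to 3′ on the coding strand, and the capitals mark the 12 bases of the box.
Ddx10: ttagttcttGATGAGGCAGATagaatcttg
Ddx46: gttgttttaGATGAAGCAGACagaatgttt
Ddx5: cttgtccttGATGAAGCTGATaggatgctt
Ddx17: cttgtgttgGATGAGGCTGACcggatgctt
Ddx3x: ctggtgttaGATGAAGCTGACcggatgtta
Ddx56: ctggtggtaGATGAAGCTGACcttcttttt
Ddx39: tttgtgctaGATGAATGTGACaagatgctg
Ddx39b: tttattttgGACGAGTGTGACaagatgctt
Dhx40: attattttgGATGAAGCCCATgaaagaact
Dhx16: gtgatggtgGATGAAGCTCACgagcggacc
Ddx3x and Ddx56 carried the same 12 box bases and lay on opposite sides of the comparison. Ddx39 and Ddx39b both encode Asp-Glu-Cys-Asp (DECD) in place of the DEAD box, with different codons. Dhx40 and Dhx16 both encode the DEAH box, again with different codons.

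All 14 hepatocyte markers on the list were in the table, and 11 reached 1 TPM in every library. Albumin lay between 274 and 381 TPM, Apoa2 was listed at 0 in all 4 libraries, and Cps1 and Ahsg stayed under 2 TPM. The summed hepatocyte markers were 7537 and 7564 TPM with IgG and 6379 and 6619 TPM with SAFB. Fibroblast (5 genes) and endothelial (3 genes) markers summed to at most 1.82 TPM. Of 4 macrophage markers Cd68 reached 1 TPM in every library, and the 4 summed to 8.61 to 34.2 TPM. Of 4 cholangiocyte markers Krt19, Krt7 and Sox9 did, with sums of 869.6 to 1265 TPM and Epcam at or under 0.364 TPM. The part of these markers in the results was not tested. Safb mRNA itself, whose protein was the target, rose from 166 to 934 TPM (log2 change 2.49 ± 0.11 SE, limma adjusted p = 0.00373). Safb2, of the same gene family, rose more, from 230.5 to 1837 TPM (2.99 ± 0.10, limma adjusted p = 0.00373). RNAs of the ribosomal DNA locus (AY036118, Gm26917 and Gm42418) took 16.8 ± 2.76% (SD, n = 2) of the IgG libraries and 1.26 ± 0.369% of the SAFB libraries. With these 3 RNAs left out and TPM rescaled, a calculation chosen after the data were seen, 20 helicase genes were called higher and 6 lower. Over all genes the same calculation gave 3775 higher and 2028 lower, against 4964 and 1382 with these RNAs kept. Entries above 0 numbered 16031 and 17278 in the IgG libraries and 22389 and 21006 in the SAFB libraries. The median absolute log2 difference between replicates of the tested helicase genes was 0.26 with IgG and 0.12 with SAFB.

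Helicase messenger RNAs lay on both sides of the comparison, and 24 of the 48 tested were not called in either direction. Ddx10, Ddx46, Ddx58, Dhx40, Ddx42, Ddx20 and Dhx9 rose most, and Ddx56, Dhx16 and Ddx39 fell. Of the 48 members tested, 21 were called higher in the SAFB RIP (43.8%) and 3 lower (6.25%), by limma with Benjamini-Hochberg adjusted p under 0.05. Over all 16647 genes tested, 29.8% were called higher and 8.30% lower. Differences are on the log2(TPM + 1) scale, SAFB RIP minus IgG RIP. Their median was 0.41 in the helicase genes and 0.46 in all genes tested, and 22 of the 48 members lay above the latter. The groups were apart with SAFB higher in 30 members and with SAFB lower in 9, against 52.3% and 21.4% of all genes tested.

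Since the median over all genes tested was 0.46 and not 0, each library was also centred on its own median. Differences went both ways, with 5389 of the 16647 genes under 0. Whether the shift was the same for all genes was not tested. After centring, 13 members were called higher and 8 lower, against 16.4% and 17.6% of all genes, and the members' median was -0.05. Ddx1, Ddx17, Ddx18, Ddx23, Ddx50, Ddx52, Dhx33 and Dhx36 were no longer called higher. Ddx10, Ddx20, Ddx21, Ddx24, Ddx3x, Ddx42, Ddx46, Ddx5, Ddx58, Ddx6, Dhx40, Dhx57 and Dhx9 were still called higher. The 3 lower genes were still called lower, and Ddx41, Ddx47, Ddx49, Dhx32 and Dhx35 joined them. Without a trend of variance on level, 18 were called higher, without Ddx23, Ddx50 and Ddx52, and 0 lower. By limma's unadjusted p under 0.05, 4 members (Ddx39, Ddx56, Dhx16 and Dhx35) were lower without that trend, and 6 with it, Ddx47 and Ddx49 being the others.

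**Figure D1:**
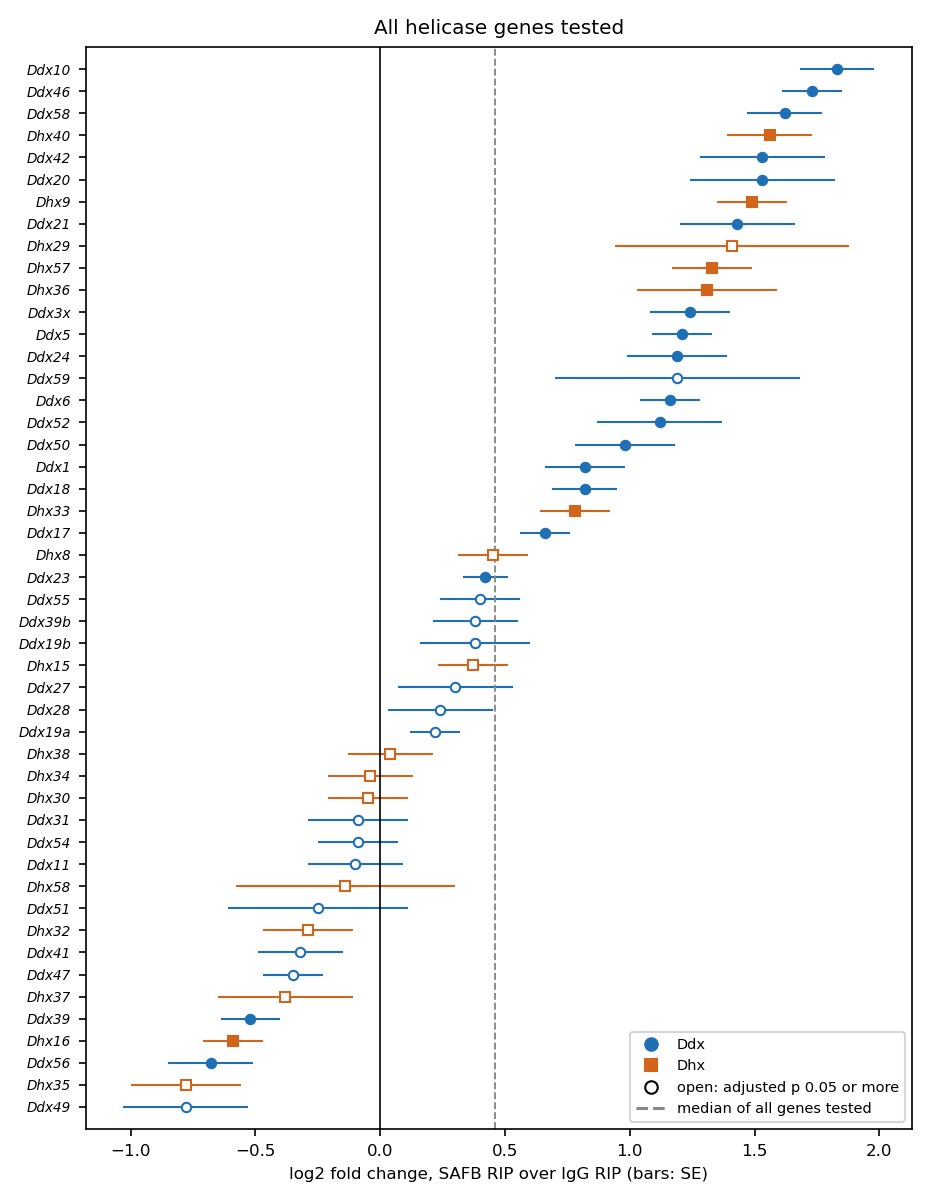
Log2 fold change (SAFB RIP over IgG RIP, on log2(TPM + 1)) of each of the 48 helicase genes tested, with bars for the standard error; filled symbols passed limma's adjusted p of 0.05. Ddx10 sits highest at 1.83, and Dhx35 and Ddx49 lowest at -0.78 without passing.

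As a share of all TPM, the 53 helicase genes took 0.418 ± 0.0115% of the IgG libraries and 0.699 ± 0.0185% of the SAFB libraries (SD, n = 2). The Ddx genes took 0.337 ± 0.00875% and 0.576 ± 0.0141%, and the Dhx genes 0.0811 ± 0.00274% and 0.123 ± 0.00439%. Both summed shares were thus larger in the SAFB libraries, with no overlap between groups. The shares are relative, and the ribosomal DNA locus RNAs took 16.8% of the IgG and 1.26% of the SAFB libraries. This left more of the total to other RNAs. Dhx9 alone went from a mean of 144 to 406 TPM. The median log2 difference was 0.54 for Ddx and 0.20 for Dhx genes, against 0.46 for all genes, so a gain across the Dhx family is not shown. Ddx5 and Ddx17 together made up 31.8% and 32.7% of helicase TPM in the IgG libraries and 36% and 37% in the SAFB libraries.

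Both families had members on each side. Of 32 Ddx genes, 16 were called higher (50.0%) and 2 lower, with a median log2 difference of 0.54. Of 16 Dhx genes, 5 were called higher (31.2%) and 1 lower, with a median of 0.20, which turned to -0.26 after centring. The Dhx share lay near the 29.8% of all genes. After centring, 10 Ddx genes were called higher and 5 lower, with a median of 0.08, and 3 Dhx genes higher and 3 lower. The centred shares of all genes were 16.4% higher and 17.6% lower. The groups were apart with SAFB higher in 22 of 32 Ddx and in 8 of 16 Dhx genes, against 52.3% of all genes. Members are not replicates, so the difference between the families has no test here. Their ranges were alike, from -0.78 to 1.83 in Ddx and from -0.78 to 1.56 in Dhx genes. The Dhx transcripts were longer (median 4318 bases against 3158) and slightly richer in G and C (median 51.9% against 50%). With the trend of fold change on GC content removed, a calculation chosen after the data were seen, the medians were 0.63 for Ddx and 0.54 for Dhx genes. The calls were then 15 higher and 1 lower for Ddx and 7 higher and 0 lower for Dhx. Over all genes the shares were 26.1% higher and 5.01% lower. By limma's unadjusted p under 0.05, 1 Dhx gene (Dhx35) was then lower.

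Of the splicing helicases, all 14 in the table were tested, and 6 were called higher (42.9%) and 2 lower (14.3%), against 29.8% and 8.30% of all genes. Their median was 0.40, under the 0.46 of all genes. After centring, 4 were called higher and 4 lower, against 16.4% and 17.6% of all genes. Ddx46, which acts on the branch-site particle early in spliceosome assembly, lies on chromosome 13 (mm10, 55635027 to 55681256). It stood at 36.9 and 36.3 TPM in the IgG libraries and 128 and 120.1 TPM in the SAFB libraries, a log2 change of 1.73 ± 0.12 (SE, limma adjusted p = 0.00449). Both SAFB libraries were far above both IgG libraries, and replicates lay close together. Ddx42, a relative that binds the same particle, had 66.8 and 107 TPM with IgG and 255 and 236 TPM with SAFB (1.53 ± 0.25, limma adjusted p = 0.0143). Here the groups did not overlap, and the IgG libraries differed from each other more than the SAFB libraries did. Dhx40, a less studied DEAH-box protein on the list, had 22.8 and 19.1 TPM with IgG and 66.3 and 60.8 TPM with SAFB (1.56 ± 0.17, limma adjusted p = 0.00729), again without overlap.

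Ddx5 and Ddx17, paired cofactors of splicing and transcription, had the highest levels of all members. Ddx5 (chromosome 11, 106780355 to 106789185) had 544 and 623 TPM with IgG and 1391 and 1300.0 TPM with SAFB, a log2 change of 1.21 ± 0.12 (limma adjusted p = 0.0063). Ddx17 (chromosome 15, 79527736 to 79546741) had 759.5 and 769.7 TPM with IgG and 1174 and 1238 TPM with SAFB, a log2 change of 0.66 ± 0.10 (limma adjusted p = 0.0128). In the IgG libraries Ddx17 was the higher of the pair and in the SAFB libraries Ddx5 was. Ddx23, a helicase of the step that brings in the tri-snRNP, had 149 and 147 TPM with IgG and 193 and 203 TPM with SAFB (0.42 ± 0.09, limma adjusted p = 0.0292). Its difference was under the shift of all genes, and it was -0.04 and not called after centring. It was also not called without either SAFB library.

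Dhx16, which remodels the spliceosome before the first cleavage, fell, with 70.1 and 69.5 TPM in the IgG libraries and 47.1 and 45.1 TPM in the SAFB libraries (-0.59 ± 0.12, limma adjusted p = 0.0238). Ddx39, a helicase of splicing and mRNA export, had 63.3 and 61.7 TPM with IgG and 42.3 and 44.1 TPM with SAFB (-0.52 ± 0.12, limma adjusted p = 0.0341). In both genes the SAFB libraries were below the IgG libraries and replicates lay close together, but neither was called without SAFB replicate 1 or without SAFB replicate 2. The gene model of Ddx39 overlaps Adgre5 on the opposite strand, which had a mean of 151 TPM. As the use of strand in counting is not given in the sources used here, the value of Ddx39 is uncertain. The other splicing members were not called. Dhx15, which takes spent spliceosomes apart, had 107 and 134 TPM with IgG and 157 and 154 TPM with SAFB (0.37 ± 0.14). Ddx39b, the close relative of Ddx39, had 224 and 164 TPM with IgG and 244 and 256 TPM with SAFB (0.38 ± 0.17). Dhx8, Dhx38, Ddx41 and Dhx35, which act in or just after catalysis, had differences of 0.45, 0.04, -0.32 and -0.78. After centring, Ddx41 (-0.78) and Dhx35 (-1.24) were called lower.

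**Figure D2:**
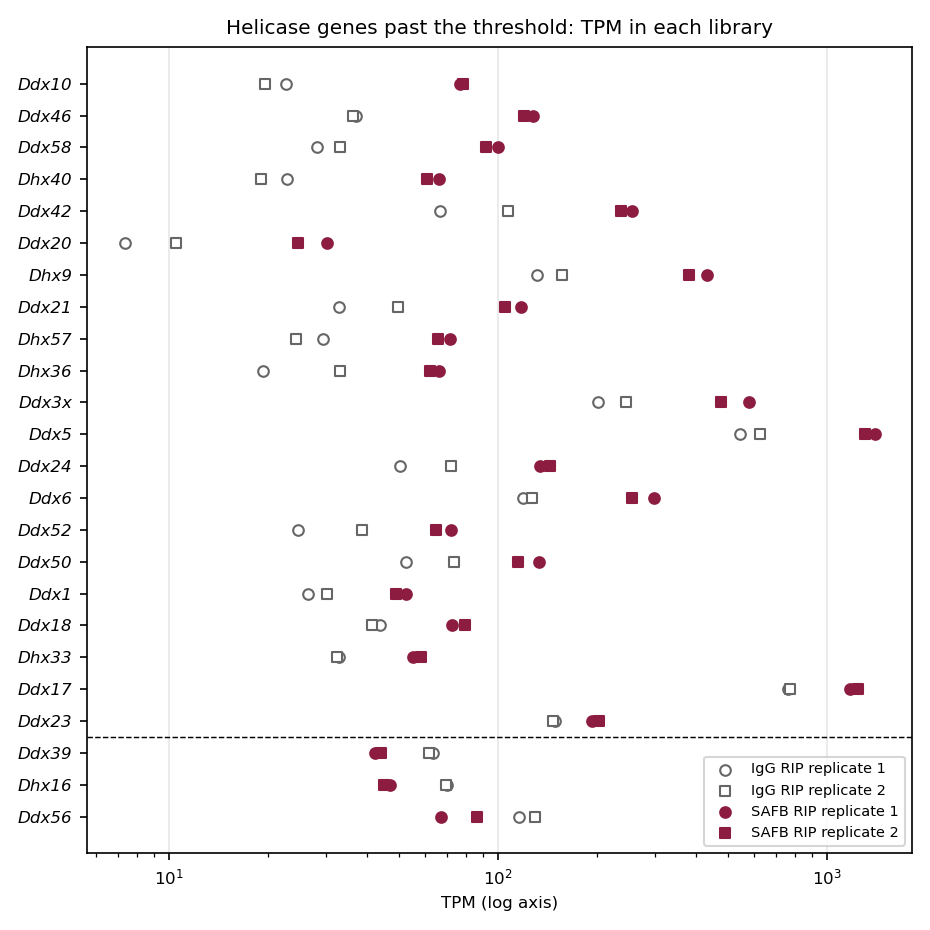
TPM on a log axis in each of the 4 libraries for the 24 helicase genes called by limma, ordered by fold change, with IgG and SAFB libraries as separate symbols. In the 21 higher genes both SAFB points lie to one side of both IgG points, from 24.6 TPM in Ddx20 to 1391 TPM in Ddx5, and in Ddx39, Dhx16 and Ddx56 the order is the opposite.

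All 16 helicases of ribosome biogenesis were tested, with 7 called higher (43.8%, against 29.8% of all genes) and 1 lower (6.25%, against 8.30%). Their median was 0.35. After centring, 3 were called higher and 3 lower, near the 16.4% and 17.6% of all genes. Ddx10, a nucleolar factor of the small subunit, had the largest change of all members. Its gene spans chromosome 9 from 53098635 to 53248053, and its levels were 22.7 and 19.6 TPM with IgG and 76.6 and 78.3 TPM with SAFB (1.83 ± 0.15, limma adjusted p = 0.00527). The SAFB libraries nearly coincided and were well above the IgG libraries. Ddx21, which couples RNA polymerase I transcription to ribosomal RNA processing, had 32.9 and 49.5 TPM with IgG and 117 and 105 TPM with SAFB (1.43 ± 0.23, limma adjusted p = 0.0141). Ddx24, a nucleolar helicase with a role in large-subunit assembly, had 50.5 and 71.7 TPM with IgG and 134 and 144 TPM with SAFB (1.19 ± 0.20, limma adjusted p = 0.0151). Neither gene's groups overlapped. Ddx52, Ddx50, Ddx18 and Dhx33 were also called higher, by 1.12, 0.98, 0.82 and 0.78, and none of these 4 was called after centring. Ddx18 and Dhx33 were not called without either SAFB library, and Ddx52 was not called without SAFB replicate 1.

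Ddx56, a nucleolar helicase of the large subunit, went the other way from Ddx10 and Ddx21. It had 116 and 129.6 TPM in the IgG libraries and 66.9 and 86.5 TPM in the SAFB libraries (-0.68 ± 0.17, limma adjusted p = 0.0361). Both SAFB libraries were below both IgG libraries, and the gene was not called without SAFB replicate 1. Ddx49, whose yeast counterpart processes small-subunit RNA, also lay lower with SAFB but did not pass before centring. It had 52.5 and 78.4 TPM with IgG and 33.2 and 40.9 TPM with SAFB (-0.78 ± 0.25, limma adjusted p = 0.0673), and it overlaps Homer3 on the opposite strand (mean 73.1 TPM). After centring it was called lower (-1.24), as was Ddx47 (-0.81). Ddx49 and Ddx23 are given in every library by choice after their values were seen. Ddx27, a large-subunit factor, had 119 and 76.5 TPM with IgG and 119 and 116 TPM with SAFB (0.30 ± 0.23), so its groups overlapped. The remaining 6 members of the list, Ddx31, Ddx47, Ddx51, Ddx54, Ddx55 and Dhx37, were not called before centring and had differences between -0.38 and 0.40. Ddx47 and Dhx37 were lower in both SAFB libraries, and Ddx55 was higher in both.

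Of 9 helicases of export, translation and decay, 7 were tested. Of these, 3 were called higher (42.9%) and 0 lower, against 29.8% and 8.30% of all genes (median 1.16, against 0.46). After centring, 2 were called higher and 0 lower, against 16.4% and 17.6% of all genes. By limma's unadjusted p under 0.05 before centring, 0 of the 7 were lower as well. Ddx3x, which helps ribosomes load on structured messages, had 201 and 245 TPM with IgG and 579 and 476 TPM with SAFB (1.24 ± 0.16, limma adjusted p = 0.00942). Ddx6, the helicase of translational repression and decapping, had 119 and 127 TPM with IgG and 297 and 256 TPM with SAFB (1.16 ± 0.12, limma adjusted p = 0.00659). In both genes the groups were clearly apart, and both were called after centring. Dhx36, which unwinds G-quadruplexes, rose by 1.31 ± 0.28, but was not called after centring. Dhx29, a factor of translation initiation, had a larger difference (1.41 ± 0.47) that did not pass, since its IgG libraries were at 7.87 and 20.7 TPM. The nuclear pore helicases Ddx19a and Ddx19b differed by 0.22 and 0.38, and Dhx34, of nonsense-mediated decay, by -0.04. Ddx3y and Ddx25 were listed at 0 in every library.

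Of 6 members on the list of transcription and RNA processing, 3 were called higher (50.0%) and 0 lower, against 29.8% and 8.30% of all genes. Their median was 0.53, against 0.46, and 0 of the 6 were lower by limma's unadjusted p under 0.05. After centring, 2 were called higher and 0 lower, against 16.4% and 17.6% of all genes. Dhx9, a cofactor of RNA polymerase II that resolves RNA duplexes and R-loops, had 131 and 156 TPM with IgG and 432 and 379 TPM with SAFB (1.49 ± 0.14, limma adjusted p = 0.00577). Ddx20, a part of the SMN complex that assembles splicing particles, was far less abundant, with 7.34 and 10.5 TPM with IgG and 30.2 and 24.6 TPM with SAFB (1.53 ± 0.29, limma adjusted p = 0.0199). The groups of both genes were apart. Ddx20 was not called without either SAFB library. Ddx1, of the tRNA ligase complex, rose by 0.82 ± 0.16 and was called neither after centring nor without either SAFB library. Dhx30, a helicase of mitochondrial ribosome assembly, had 78 and 82.8 TPM with IgG and 68.9 and 87.6 TPM with SAFB (-0.05 ± 0.16), so its groups overlapped. Dhx30 overlaps Smarcc1 on the opposite strand (mean 150.4 TPM), so its value is uncertain. Ddx28, also mitochondrial, and Ddx11, a DNA helicase of sister chromatid cohesion despite its name, had differences of 0.24 and -0.10. Ddx28 overlaps Dus2 on the opposite strand (mean 18.6 TPM), about its own level, so its value is uncertain too.

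Of the 2 RNA sensors tested, 1 was called. Ddx58, which encodes RIG-I, had 28.2 and 33 TPM with IgG and 100.1 and 91.7 TPM with SAFB (1.62 ± 0.15, limma adjusted p = 0.00577). Dhx58, which encodes its relative LGP2, had 5.4 and 11.6 TPM with IgG and 7.51 and 6.86 TPM with SAFB (-0.14 ± 0.44). The groups of Ddx58 were well apart, and those of Dhx58 overlapped. The difference between the pair has no test here. Ddx60 was listed at 0 in both IgG libraries and at 0.248 and 0.0568 TPM in the SAFB libraries, too low to be tested. Among the 3 members with other or little known roles, Dhx57 was called higher, with 29.3 and 24.3 TPM with IgG and 71.5 and 65.7 TPM with SAFB (1.33 ± 0.16, limma adjusted p = 0.0087). Ddx59 had a difference of 1.19 ± 0.49, with IgG libraries at 30.7 and 11.2 TPM, and was not called. Dhx32 had 85.1 and 64.2 TPM with IgG and 63.5 and 56.8 TPM with SAFB (-0.29 ± 0.18), was called lower only after centring (-0.75), and overlaps Bccip on the opposite strand (mean 73.5 TPM). The germ line helicases Ddx4, the mouse Vasa, and Ddx43 were listed at 0 in every library.

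**Figure D3:**
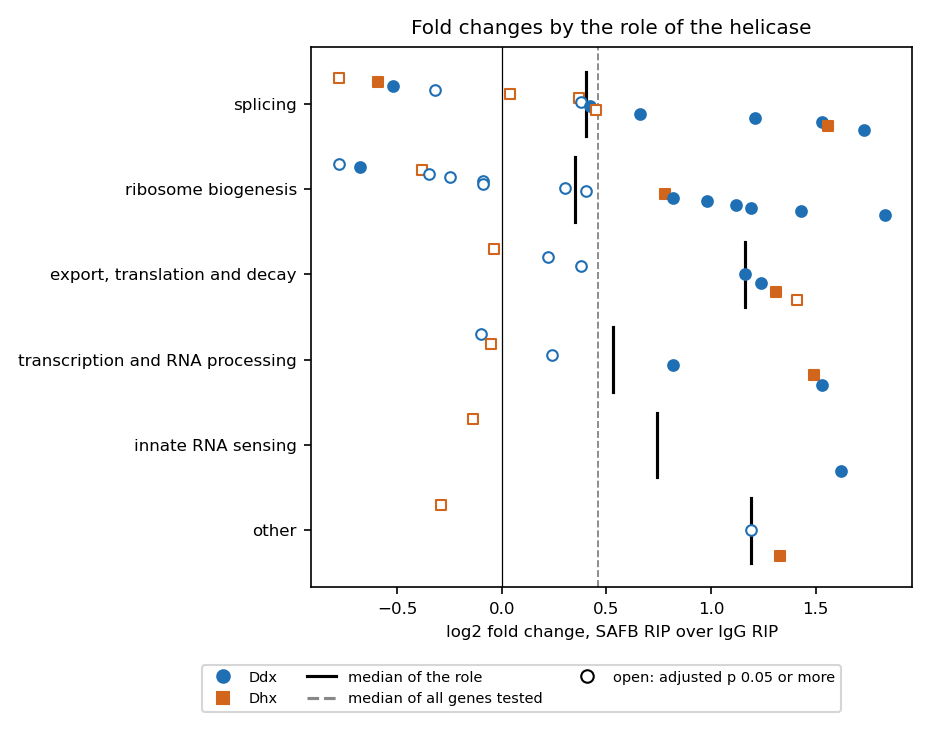
Log2 fold change of each tested member by role, filled where limma's adjusted p was under 0.05, with a bar at the median of each role and a dashed line at the median of all genes tested (0.46). Splicing and ribosome biogenesis spread from -0.78 to 1.73 and 1.83, and export, translation and decay have a median of 1.16.

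The members' fold changes followed the GC content of their transcripts. GC content was taken from 1 GENCODE transcript per gene. Across the 48 members Spearman's rho between GC content and log2 fold change was -0.75, with -0.74 in Ddx and -0.72 in Dhx genes. Across the 11961 protein-coding genes tested it was -0.51. These are descriptions across genes, which share the same 4 libraries and are not independent replicates. Of the 24 members with less than 50.2% GC, the members' median, 19 were called higher and 0 lower by limma, with a median change of 1.22, and 1 (Ddx47) was lower by unadjusted p under 0.05. Of the 24 members at or above it, 2 were called higher (Ddx23 and Ddx24) and 3 lower, with a median of -0.09. Protein-coding genes on the same sides of 50.2% were called higher in 43.1% and 14.6%, and lower in 2.32% and 17.4%. Their median changes were 0.77 and -0.08. The called-higher helicases had a median GC content of 45.2%, the called-lower ones 54.7% and those not called 52.7%.

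Dhx15 was an exception on the low side, with 43.4% GC and a difference of 0.37 that was not called, and Ddx24 on the high side, with 52.5% GC and a rise of 1.19. These exceptions were chosen after their values were seen. With the GC trend of all genes removed, 22 members were called higher and 1 lower, against 26.1% and 5.01% of all genes. Of the 21 higher genes 18 were still called, without Ddx1, Ddx50 and Ddx52. None of Ddx39, Ddx56 and Dhx16 was still called lower, and the value of Dhx16 became 0.04. The part of GC content in these results was not tested.

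**Figure D4:**
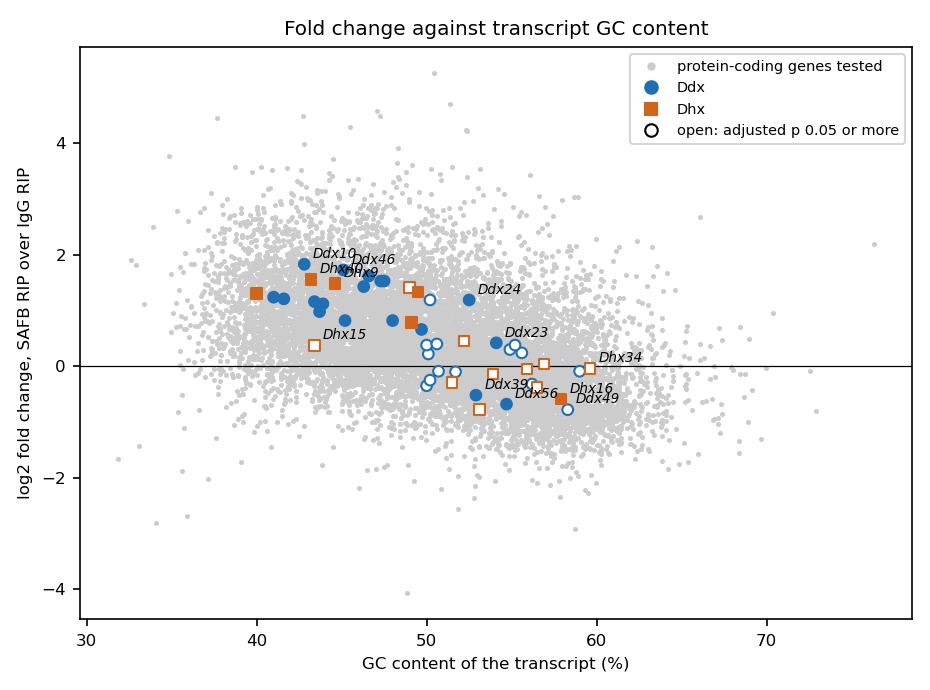
Log2 fold change against transcript GC content (%) for the tested Ddx and Dhx genes (filled where limma's adjusted p was under 0.05) over the 11961 protein-coding genes tested in grey. GC content of the members runs from Dhx36 at 40% (change 1.31) to Dhx34 at 59.6% (-0.04). The largest change is that of Ddx10 at 42.8% (1.83), and the lowest are those of Ddx49 at 58.3% and Dhx35 at 53.1% (both -0.78).

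Other features had smaller coefficients. Transcript length had a rho of 0.34 across the 48 members and 0.18 across protein-coding genes, and the genomic span of the gene 0.38 and 0.23. The number of exons had 0.10 and -0.02. The purine hexamer GAAGAA was counted on the transcript strand, overlapping matches included, because SAFB is known to bind purine-rich RNA. It occurred in 44 of the 48 member transcripts (91.7%) and in 82.3% of protein-coding transcripts. The member transcripts were also longer (median 3455 bases against 2914). The median hexamer density was 1.57 per kb in the 21 called-higher members, 0.895 in the 3 called-lower, 1.03 in the 24 not called and 0.738 in protein-coding genes. Median GC content in the same groups was 45.2%, 54.7%, 52.7% and 50.5%, so hexamer density was not separated from GC content. Ddx10 held 3.2 hexamers per kb and Ddx56 held 0. Across the members the rho of hexamer density with fold change was 0.44, and across protein-coding genes 0.34. A match is only a match of letters and says nothing of binding.

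The name of a member did not always match its codons. The search read in-frame codons, on the coding strand, for the DEAD, DEAH and DECD boxes, which occur in 0.724%, 0.337% and 0.169% of 22527 annotated coding sequences. DEAD codons were found in 28 of 37 Ddx genes, and DEAH codons in 8 of 16 Dhx genes and in Ddx11. None of the 3 was found in 6 Ddx genes (Ddx21, Ddx28, Ddx50, Ddx52, Ddx58 and Ddx60) or in 7 Dhx genes (Dhx9, Dhx30, Dhx32, Dhx34, Dhx36, Dhx57 and Dhx58). Dhx29 had a DEAD match at codon 1118 of 1365, and Ddx17 a DECD match at codon 505 of 652 beside its DEAD box at codon 246. Ddx10 had DEAD matches at codons 222 and 544 of 875, of which the first is printed above.

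The shares called over all genes were 29.8% higher and 8.30% lower, and after centring 16.4% and 17.6%. By box, 11 of the 23 tested Ddx genes with DEAD alone were called higher (47.8%) and 1 lower (4.35%), with a median of 0.42. After centring, 8 of these were called higher and 4 lower. Of the 8 Dhx genes with DEAH, 2 were called higher and 1 lower (median 0.20), and after centring 1 and 2. Of the 5 tested Ddx genes with none of the 3 boxes, 4 were called higher and 0 lower, with a median of 1.12, and after centring 2 and 0. Of the 7 such Dhx genes, 3 were called higher and 0 lower, with a median of -0.04, and after centring 2 and 1. In both of these last groups, before centring, 0 genes were lower by limma's unadjusted p under 0.05. The same 12 DEAD bases stood in 6 genes, counting the second match of Ddx10 at codon 544, which is not the box printed above. Among the 6 were Ddx46 at 1.73 and Ddx47 at -0.35.

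Related members did not always share a call. Coding sequences of Ddx5 and Ddx17 were 70.1% identical over their alignment, with changes of 1.21 and 0.66. Ddx21 and Ddx50, neighbours on chromosome 10 and 68.2% identical, both rose (1.43 and 0.98). Ddx39 and Ddx39b were 81.2% identical, with Ddx39 called lower (-0.52) and Ddx39b not called (0.38). Dhx8 and Dhx16 were 61.1% identical, with differences of 0.45 and -0.59. Ddx19a and Ddx19b were 93.1% identical, and the 30 bases around their DEAD box were the same, so reads could have been split between them and both values are uncertain. Ddx3x and Ddx3y were 84.6% identical, and only Ddx3x had values above 0. None of these differences between relatives has a test here.

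Genes that work with the helicases were read from 4 lists. Among RNA helicases without a Ddx or Dhx name, 20 of 24 were tested, 5 were called higher (25%) and 3 lower (15.0%), against 29.8% and 8.30% of all genes. Their median was 0.22, and after centring 3 were called higher and 6 lower. For this and the other lists, the shares of all genes after centring were 16.4% higher and 17.6% lower. Eif4a1 and Eif4a2, the helicase subunits of the cap-binding complex in translation, had differences of 0.12 ± 0.14 and -0.02 ± 0.13, and Helz2 rose by 0.47 ± 0.11, which was 0.01 and not called after centring. Eif4a3 of the exon junction complex and Upf1 of nonsense-mediated decay fell, by 0.93 and 0.77 on the log2 scale. Eif4a3 and Upf1 were chosen after their values were seen. Of 21 G-patch proteins, some of which switch on DEAH helicases, 11 were called higher (52.4%) and 0 lower (median 0.72). The shares of all genes were 29.8% and 8.30%. By limma's unadjusted p under 0.05, 0 of the 21 were lower as well. After centring, 7 were called higher and 2 lower (Cmtr1 and Tfip11). Rbm6 rose from 138 and 198 TPM to 579 and 538 TPM (1.75 ± 0.20), Gpatch2 by 1.36 ± 0.12 and Rbm5 by 0.43 ± 0.11, the last not called after centring. Of 16 MIF4G and exon junction partners of DEAD helicases, 9 were called higher (56.2%) and 1 lower (6.25%), against 29.8% and 8.30%. Their median was 0.71, and after centring 5 were called higher and 2 lower. Eif4g2, Eif4g1 and Eif4b rose by 1.46, 1.38 and 0.97, and Eif4h fell by 0.48 on the log2 scale. Of 18 mRNA export partners, 5 were called higher (27.8%, under the 29.8% of all genes) and 1 lower (median 0.52), and after centring 5 and 4. Poldip3 rose by 1.15 ± 0.11, Nxf1, the export receptor, had -0.45 ± 0.09 and was called lower, and Zc3h11a had -0.08 ± 0.37 and was not called. All lists had a median of at most 0.26 after centring.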

How the data were processed

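The authors deposited 1 table of TPM values (summing to about 1000000 per library) for 2 IgG RIP and 2 SAFB RIP libraries. Build mm10 and the tools HISAT2, HTSeq, DESeq2 and StringTie are named, with no role or version, per the submitters' processing notes. Which annotation and strand setting were used is not given in the sources used here. The unit keeps no depth, so depth is unknown, no counting interval is given, and a value of 0 is described only as listed at 0.

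The table's 52197 entries hold 52189 identifiers, and 14 entries sharing 6 identifiers were summed. The 16647 genes that reached 1 TPM in 2 or more of the 4 libraries were tested, so a gene can enter through 1 group alone. limma 3.58.1 in R 4.3.3 was run on log2(TPM + 1), with a variance trend, 2 residual degrees of freedom and 2.5 from the prior. P-values are two-sided and adjusted by Benjamini-Hochberg over all genes tested (threshold 0.05). The pseudocount understates changes of low genes. An exact permutation test of 2 against 2 cannot go below 0.333, so none was used. TPM errors are SD and fold change errors SE, over 2 libraries a group. On simulated data with 4000 of 16647 genes changed, 40.7% of 2-fold and 79.9% of 4-fold changes were recovered, and unchanged genes made up 3.83% of calls. With 200 changed, these were 0%, 22% and 0%.

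Coordinates, GC content, coding sequences and overlaps come from GENCODE release M21 (mm10), which held 52042 of the identifiers. Box codons were searched there in place of protein sequences. The members and gene lists were chosen with earlier results of these data known. Genes named with values in every library are the 8 largest calls in each direction, the 5 most abundant Ddx and Dhx genes and the 2 most abundant of each role. Up to 3 of the most abundant genes of each partner list, and Safb, are named too, and other genes are said to be chosen later or given in brief. Alternatives changed the pseudocount, filter, scaling, variance trend, replicate block and libraries used. Removal of a GC or a transcript length trend (loess, span 0.5) and leaving out RNAs of the ribosomal DNA locus were chosen after seeing the data.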

Additional observations from a re-analysis of the deposited data

How the results depend on the processing

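Pseudocounts of 0.1 and 5 and both other filters left the count of 21 higher helicase genes at 21. Called higher and lower helicase genes were 13 and 8 with median centring, 16 and 7 with quantile normalization, 18 and 8 with TPM rescaled over protein-coding genes, 20 and 6 without the ribosomal DNA locus RNAs, 18 and 0 without a variance trend, and 22 and 1 with the GC trend removed. For Ddx genes the higher and lower counts were 10 and 5 with median centring, 12 and 5 with quantile normalization, 14 and 5 with protein-coding genes rescaled, 15 and 4 without the locus RNAs, 13 and 0 without a variance trend, and 15 and 1 with the GC trend removed. The lower count of Ddx genes was 1 with no filter beyond a value above 0 and 1 with the transcript length trend removed. For Dhx genes the counts were 3 and 3 with median centring, 4 and 3 with protein-coding genes rescaled, 4 and 2 with quantile normalization, 5 and 2 without the locus RNAs, 5 and 0 without a variance trend, and 7 and 0 with the GC trend removed. The lower count of Dhx genes was 2 with a mean TPM of at least 5 and 2 with a pseudocount of 5. The Ddx and Dhx medians were 0.08 and -0.26 with median centring, 0.31 and -0.10 with quantile normalization, 0.24 and -0.09 with protein-coding genes rescaled, 0.29 and -0.04 without the locus RNAs, and 0.63 and 0.54 with the GC trend removed. All genes called higher and lower were 2736 and 2935 with median centring, 2758 and 2986 with quantile normalization, 2600 and 2322 with protein-coding genes rescaled, and 4340 and 833 with the GC trend removed. Without the locus RNAs they were 3775 and 2028.

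Leaving out each library in turn gave 15 to 26 higher and 0 to 8 lower helicase genes, 11 to 20 and 0 to 5 for Ddx, 4 to 8 and 0 to 3 for Dhx, and 2034 to 7781 and 571 to 2631 for all genes. The Ddx median ranged from 0.45 to 0.63 and the Dhx median from 0.21 to 0.43. The lone library is then assumed to vary like the other group. Of the 21 higher genes, 15 were still called without SAFB replicate 1 and 16 without SAFB replicate 2. Of the 3 lower genes, 0 and 1 (Ddx56) were.

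Replicate numbers do not pair the samples by the labels, and deviations of same-numbered libraries had a correlation of -0.0247. With the replicate block, 22 helicase genes were called higher and 2 lower, and the Dhx counts were 6 and 0. Ddx23, Ddx39 and Dhx16 were not called under the block, and Ddx49, Ddx59 and Dhx29 were.

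Among genes called before or under an alternative, signs reversed for Ddx23 with median centring (-0.04), and with the GC trend removed for Ddx54 (0.59), Dhx16 (0.04) and Dhx34 (0.68). Genes called in neither changed sign in 9 cases with median centring, 5 with the GC trend removed, 5 with quantile normalization and at most 4 under any other alternative. The cause of these changes was not tested. The depth is unknown, so precision at low TPM cannot be stated.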
